A study of Mus musculus with 4 samples.

Results

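The 52 cell cycle and DNA replication genes described here comprise 13 regulators of G1 and the G1/S transition, 15 genes of S phase, 21 genes of G2 and mitosis and 3 inhibitors of cyclin-dependent kinases. They were taken as the probes whose gene name on the array equals the member's symbol, control spots left out, and all 52 were present among 37074 gene names. One-colour Agilent mouse arrays, 1 for each of 4 groups on 1 slide, measured RNA of whole C57BL/6 embryos. The groups were wild type (WT) at embryonic day 8.5 (E8.5), *Dyrk2*-/- at E8.5, WT at E10.5 and *Dyrk2*-/- at E10.5. The mutant mice carried small *Dyrk2* deletions made with the CRISPR/Cas9 nickase system, and the study compared the genotypes to find what the loss of this kinase alters in early organogenesis. The number of embryos behind each RNA was not given in the text used here, and no genotype difference at a single stage could be checked against replicates.

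Values are log2 intensities relative to the 75th percentile of the same array, so that 0 is the level of that percentile, and at each stage the WT value is given first. *Dyrk2* read 0.06 and 0.76 at E8.5, then −0.31 and 0.34 at E10.5. Its transcript was therefore not lower on the arrays labelled *Dyrk2*-/-, but higher, by 1.62-fold at E8.5 and by 1.57-fold at E10.5, and limma gave an adjusted p of 0.24 for this genotype difference over both stages (Benjamini-Hochberg). A further *Dyrk2* probe was 1.02-fold and 1.21-fold higher. The brightest probe lies at 118296479 to 118296538 of chromosome 10 (mm9, the array annotation). A probe outside the deleted part checks nothing about the label, and where the deletions lie relative to these probes was not analysed here, so the directions below rest on the submitters' labels.

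Cells pass from G1 into S phase when cyclin D and cyclin E kinases inactivate the retinoblastoma protein and release E2F factors, which switch on genes for DNA replication. Origins are licensed by the origin recognition complex, Cdc6, Cdt1 and the Mcm helicase, and later cyclin B with Cdk1 drives mitosis under the spindle checkpoint. Embryos at these stages divide quickly, and inhibitors such as p27 and p18 are known for restraining the cycle as cells leave it to differentiate.

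Every one of the 52 members was marked well above background by the scanner software on all 4 arrays at its brightest probe, which stands for the gene. The members had 103 probes, 1 to 5 each, with 22 members measured by 1 probe, and 6 of the probes were not well above background on any array. No member reached a 1.5-fold difference between genotypes at E8.5. Of all 20709 genes well above background on at least 1 of those arrays 11.6% did, and of the 18686 genes well above background on all 4 arrays 6.92% did. The members' log2 ratios, array labelled *Dyrk2*-/- over WT, ran from −0.43 for *Rrm1* to 0.38 for *E2f1*, with a median of 0.00 against −0.02 over all genes. Their median size was 0.10, against 0.18 over the genes well above background on all 4 arrays. At E10.5 the count was again 0 of 52, against 7.73% of 21209 genes and 3.09% of the 18686. There the log2 ratios ran from −0.30 for *Rb1* to 0.24 for *Gmnn*, with a median of 0.08, and their median size was 0.10 against 0.11. The sets of all genes, here and below, were not matched to the members in brightness. On the WT E8.5 array only *Ccne2*, *E2f3*, *Cdc25b*, *Cdkn1a* and *Cdkn2c* of the members read below 0. The dimmest probe well above background there read −4.82. The part of brightness in these smaller sizes and shares was not tested, so they are not read as particular to the members.

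The sides on which these small ratios fell depended on the scaling between arrays. At E8.5 25 members lay above 0 and 27 below, while 37 lay above 0 after quantile normalization, 4 without scaling and 0 after scaling to the spike-in control probes. At E10.5 38 lay above 0 and 14 below, while 47 lay above 0 with the spike-in probes and 11 without scaling. Relative to the percentile scaling, the spike-in probes moved the median of all probes by −0.55 (E8.5) and 0.16 (E10.5), and omitting the scaling moved it by −0.26 and −0.13. With the spike-in scaling 19 members were at least 1.5-fold lower at E8.5, and without scaling 3 were, *Orc1*, *Rrm1* and *Mad2l1*. The shares of all genes past 1.5-fold under these 2 scalings are not given here, so these counts are not read as particular to the members. Which scaling holds was not tested.

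Over both stages limma, which fitted genotype and stage together on the 32289 probes well above background on 2 or more arrays with 1 residual degree of freedom, called 0 of 52 members for genotype after Benjamini-Hochberg adjustment, against 0.0287% of 20901 genes. At an unadjusted p under 0.05 it found 1 member and 5.67% of all genes. That member was *Ccnd3*, cyclin D3, named after its value was seen, which read 5.59 and 5.96 at E8.5, then 5.65 and 5.82 at E10.5. It was higher on the array labelled *Dyrk2*-/- in both pairs, by 1.29-fold and 1.12-fold, with an adjusted p of 1.0 in limma, but lower at E8.5 with the spike-in scaling. How a genotype difference changes between stages is the residual of this fit and was not tested.

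By role, the G1 members lay highest at E8.5, with a median log2 ratio between genotypes of 0.21 and 9 of 13 above 0, though the median was −0.05 without scaling and −0.34 with the spike-in probes. At E10.5 their median was 0.03. The S phase members had medians of 0.00 and 0.12, with 6 and then 14 of 15 above 0, where quantile normalization gave 10 and 13 and omitting the scaling 0 and 6. The G2/M members had medians of −0.03 and 0.08, with 8 and then 17 of 21 above 0, where quantile normalization gave 14 and 17 and omitting the scaling 0 and 2. The 3 inhibitors had medians of 0.09 and −0.19. All 3 lay below 0 at E10.5, where the spike-in scaling put 1 of them above 0. The other *Cdkn2c* probe had −0.47 at E8.5 and 0.23 at E10.5, opposite to the brightest at 0.14 and −0.19. With averaged probes *Cdkn2c* had −0.17 and 0.02.

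Among single members the lowest ratio at E8.5 belonged to *Rrm1*, the large subunit of ribonucleotide reductase, which supplies deoxynucleotides. *Rrm1* read 3.73 and 3.29 at E8.5, then 4.10 and 4.10 at E10.5. The E8.5 array labelled *Dyrk2*-/- was the lowest, 1.35-fold below its WT array, and the E10.5 arrays read the same. *Mad2l1*, a spindle checkpoint protein, read 4.76 and 4.39 at E8.5, then 4.05 and 4.18 at E10.5, and *Gmnn*, the Cdt1 inhibitor geminin, read 5.76 and 5.44 and then 5.0 and 5.24. Both lay lower on the labelled array at E8.5 under every scaling tried, and higher at E10.5, except *Mad2l1* without scaling, where its ratio was not above 0. *E2f1*, the activating E2F factor, read 1.91 and 2.29 at E8.5, then 2.04 and 1.96 at E10.5, the highest member ratio at E8.5 under the percentile scaling, but it turned to −0.17 with the spike-in scaling, and *Ccnd3* lay above it after quantile normalization and with normexp. These 4 members were chosen after their values were seen.

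**Figure D1:**
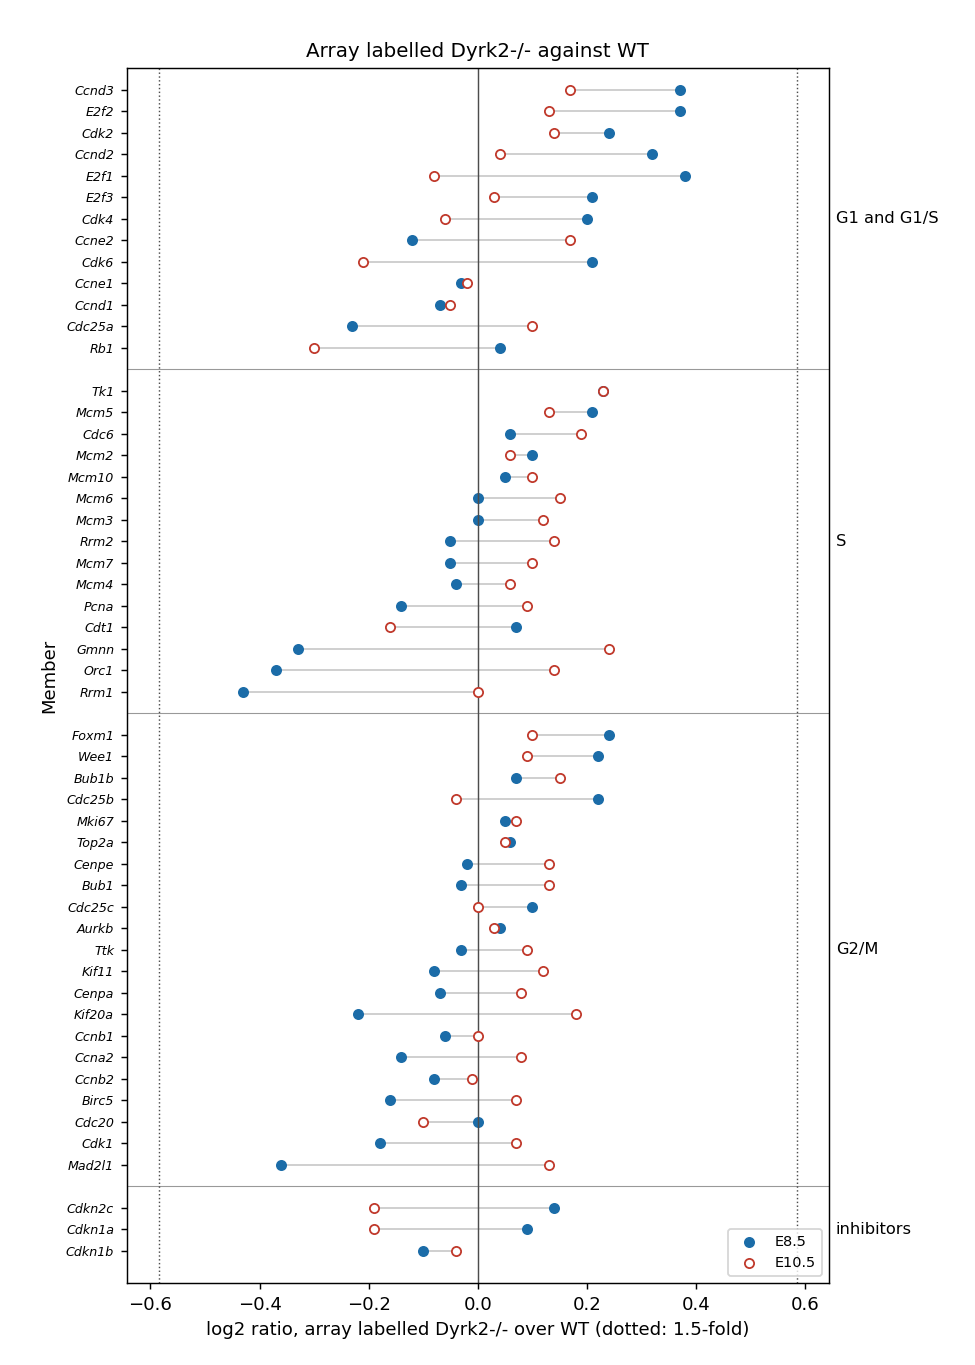
Log2 ratio of the array labelled *Dyrk2*-/- over WT for each of the 52 members at E8.5 (filled) and E10.5 (open), by role, with 1.5-fold as dotted lines and 1 array per group. No point reaches the dotted lines, and the points run from −0.43 for *Rrm1* to 0.38 for *E2f1*; with the spike-in scaling all E8.5 ratios lie below 0.

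For several members another probe differed from the brightest. At E8.5 a *Ccnb1* probe read 1.69-fold lower on the labelled array, where the brightest had a log2 ratio of −0.06. The other *Cdc25b* probe was 2-fold higher at E8.5 (brightest 0.22), and the other *Cdkn1b* probe was 1.57-fold lower (brightest −0.10). A *Cdk4* probe was 1.5-fold lower at E10.5, where the brightest had −0.06. A further *Ccnb1* probe was 1.39-fold lower at E8.5, and a further *Cdk4* probe was 1.40-fold lower at E10.5. After averaging all probes of each gene 1 member passed 1.5-fold at E8.5, *Cdc25b*, with 0 at E10.5. That average takes in the dim *Cdc25b* probe, and the brightest alone did not pass.

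Between the stages the members differed more than between genotypes. The median size of their log2 ratios was 0.36 on the WT arrays and 0.29 on the labelled arrays. Over the 18686 genes well above background on all 4 arrays it was 0.36 and 0.31, so the members' sizes were not larger. On the WT arrays 5 of 52 members were at least 1.5-fold higher at E10.5, against 18.8% of 21643 genes and 14.7% of the 18686 genes well above background on all 4 arrays, and 13 were at least 1.5-fold lower, against 17.5% and 15.3%. On the arrays labelled *Dyrk2*-/- 6 members were higher, against 17.6% of 21266 genes and 12.6% of the 18686, and 5 were lower, against 13.9% and 12.4%. The members' median log2 ratio was −0.26 on the WT arrays and −0.16 on the labelled arrays, beside −0.10 and −0.08 over the 18686 genes. After quantile normalization it was −0.06 and −0.03, beside −0.06 and −0.04 over all probes, and on the labelled arrays it was 0.14 without scaling and 0.48 with the spike-in probes. The split on the WT arrays was 7 higher and 3 lower after quantile normalization and in the deposited table and 6 higher and 2 lower without scaling. On the labelled arrays it was 6 and 3 after quantile normalization and in the deposited table, 8 and 1 without scaling, 15 and 0 with the spike-in probes, and 5 and 8 with averaged probes. In the stage comparisons omitting the scaling moved the median of all probes by 0.18 and 0.31, and the spike-in probes moved it by −0.07 and 0.64.

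Limma over both genotypes called 24 of 52 members for stage after Benjamini-Hochberg adjustment. Of these 7 were higher at E10.5, against 17.2% of 20901 genes, and 17 were lower, against 20.4%. The called members kept their direction in limma's difference, which averages the genotypes, under every scaling tried. On the labelled arrays alone 14 of the 17 lower ones lay above 0 with the spike-in probes, all but *Cdt1*, *Mcm4* and *Orc1*, and 3 did without scaling, *Gmnn*, *Mad2l1* and *Kif20a*. Of the 17 lower ones 9 passed the threshold after quantile normalization, 3 without scaling and 0 with the spike-in probes, and of the 7 higher ones 7, 7 and 1 did, the 1 being *Cdkn2c*. Without the trend 4 of the 17 and 5 of the 7 passed. The split over all members was 11 higher and 10 lower after quantile normalization, 11 and 11 in the deposited table and 10 and 3 without scaling. In whole embryos fewer cells of a type and less RNA per cell cannot be told apart.

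Of the 13 G1 members limma called 2 higher and 1 lower at E10.5. *E2f2*, an activating E2F factor, read 1.13 and 1.5 at E8.5, then 2.62 and 2.75 at E10.5 (chromosome 4, 135750562 to 135750621, mm9). Both E10.5 arrays lay above both E8.5 arrays. It rose 2.81-fold on the WT arrays and 2.39-fold on the labelled arrays, with a stage difference of 1.37 (log2, SE 0.13, limma adjusted p = 6.5e-05). This call was lost with the spike-in probes (0.103). *Rb1*, the retinoblastoma protein that restrains E2F factors, read 0.17 and 0.22 at E8.5, then 1.29 and 0.99 at E10.5 (chromosome 14, 73595408 to 73595467). Again both E10.5 arrays were the high ones, by 2.16-fold and 1.71-fold (limma difference 0.94, SE 0.14, adjusted p = 0.00106). *Ccne1*, the cyclin E1 subunit that activates Cdk2, read 4.98 and 4.95 at E8.5, then 4.36 and 4.33 at E10.5 (chromosome 7, 38882937 to 38882960). It fell 1.54-fold and 1.53-fold (limma difference −0.62, SE 0.11, adjusted p = 0.00289), though it did not pass without scaling (0.0749) or without the trend (0.0527), and with the spike-in scaling its log2 ratio on the labelled arrays was 0.02. The D cyclins *Ccnd1*, *Ccnd2* and *Ccnd3* and the kinases *Cdk2*, *Cdk4* and *Cdk6*, named as families after their values were seen, were not called, with stage differences from −0.20 for *Cdk2* to 0.15 for *Ccnd1* and *Cdk4*, though these 2 passed as higher after quantile normalization. A fainter *Cdk4* probe was 1.60-fold lower at E10.5 on the labelled arrays, where the brightest had a log2 ratio of 0.02. *E2f3* and *Ccne2* were not called either, with stage differences of −0.38 and −0.58. However, *E2f3* passed as lower after quantile normalization (0.0462 in limma) and *Ccne2* with normexp (0.0451). Both also passed as lower in the deposited table (0.0449 and 0.0487).

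Of the 15 S phase members limma called 1 higher and 10 lower, and 14 of 15 lay below 0 in each genotype. Their median log2 ratio was −0.57 on the WT arrays and −0.42 on the labelled arrays. After quantile normalization these medians were −0.34 and −0.29, and with the spike-in probes the labelled arrays had a median of 0.22 with 12 of 15 above 0. *Orc1*, the large subunit of the origin recognition complex, read 2.18 and 1.81 at E8.5, then 0.90 and 1.03 at E10.5 (chromosome 4, 108287350 to 108287409). Both E8.5 arrays lay above both E10.5 arrays, and it fell 2.44-fold and 1.72-fold (limma difference −1.03, SE 0.15, adjusted p = 0.000877). *Cdt1*, which loads the Mcm helicase, read 5.13 and 5.20 at E8.5, then 4.44 and 4.27 at E10.5 (chromosome 8, 125096893 to 125096952). It fell 1.62-fold and 1.89-fold (limma difference −0.81, SE 0.12, adjusted p = 0.000934). *Mcm4*, a helicase subunit, read 6.25 and 6.21 at E8.5, then 5.43 and 5.49 at E10.5 (chromosome 16, 15624372 to 15624431). It fell 1.77-fold and 1.65-fold (limma difference −0.77, SE 0.11, adjusted p = 0.000873).

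The other S phase members called lower were *Cdc6*, *Gmnn*, *Mcm3*, *Mcm5*, *Mcm7*, *Mcm10* and *Pcna*, with limma stage differences from −0.64 for *Mcm10* to −0.44 for *Pcna*. Without the trend only *Mcm10* of these passed, and without scaling or with the spike-in probes none did. *Gmnn*, *Mcm5* and *Pcna* did not pass after quantile normalization (0.121, 0.0764 and 0.0868 in limma), nor did *Gmnn* with normexp (0.0756). Those not called, *Mcm2*, *Mcm6*, *Rrm2* and the thymidine kinase *Tk1*, had differences from −0.29 for *Mcm6* to −0.09 for *Tk1*. The dimmest *Gmnn* probe had a log2 ratio of 0.26 on the WT arrays, opposite to the brightest at −0.76, while other probes of *Mcm6* and *Mcm7* were 1.56-fold and 1.73-fold lower on the WT arrays. *Rrm1* went the other way from the other S phase members and rose 1.30-fold on the WT arrays and 1.75-fold on the labelled arrays (limma difference 0.59, adjusted p = 0.00931), a call lost without the trend (0.0907) and with the spike-in probes. Its partner subunit *Rrm2* read 6.29 and 6.23 at E8.5, then 5.96 and 6.10 at E10.5 and was not called (adjusted p = 0.15 in limma).

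Of the 21 G2/M members limma called 2 higher and 6 lower, and 15 of 21 lay below 0 in each genotype, though with the spike-in probes all 21 lay above 0 on the labelled arrays. *Cdc25b*, a phosphatase that activates Cdk1, read −0.33 and −0.11 at E8.5, then 0.91 and 0.88 at E10.5 (chromosome 2, 131023376 to 131023435). It rose 2.37-fold and 1.98-fold (limma difference 1.12, SE 0.14, adjusted p = 0.000376), while its other probe was 1.11-fold higher on the labelled arrays. *Bub1*, a spindle checkpoint kinase, read 3.16 and 3.13 at E8.5, then 2.57 and 2.70 at E10.5 (chromosome 2, 127626988 to 127627047). It fell 1.51-fold and 1.35-fold (limma difference −0.51, SE 0.12, adjusted p = 0.0106), and it did not pass without scaling (0.221), without the trend (0.0814) or with the spike-in probes. *Cdk1*, the kinase that drives mitosis, read 3.54 and 3.35 at E8.5, then 2.91 and 2.98 at E10.5 (chromosome 10, 68805423 to 68807832). It fell 1.54-fold and 1.29-fold (limma difference −0.50, SE 0.12, adjusted p = 0.0135), and it did not pass after quantile normalization (adjusted p = 0.0534), without scaling (0.253), without the trend (0.0948) or with the spike-in probes.

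*Cdc20*, *Mad2l1*, *Kif20a* and *Wee1* were the other G2/M members called lower, from −0.50 for *Kif20a* to −0.33 for *Cdc20*, and none of them passed after quantile normalization, without scaling, without the trend or with the spike-in probes. *Mki67*, the proliferation antigen Ki67, read 4.81 and 4.86 at E8.5, then 5.22 and 5.30 at E10.5. It was the other member called higher, by 1.33-fold and 1.35-fold (adjusted p = 0.0179 in limma), a call lost without the trend (0.108) and with the spike-in probes. *Top2a*, the topoisomerase that untangles chromosomes, read 4.88 and 4.94 and then 4.96 and 5.01, and *Ccnb1*, cyclin B1, read 4.83 and 4.77 and then 4.69 and 4.69. Neither was called, with adjusted p of 0.662 and 0.474 in limma. The 13 members not called had stage differences from −0.34 for *Ccna2* to 0.21 for *Cenpe*. Of these *Cenpe* and *Foxm1* passed as higher after quantile normalization and without scaling. *Ccna2* (limma adjusted p = 0.0505) passed as lower with the filter on all arrays (0.0489) and without a filter (0.0369).

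Of the 3 inhibitors limma called 2 higher and 0 lower, and all 3 lay above 0 in both genotypes under every scaling tried. *Cdkn2c*, which encodes p18 and blocks Cdk4 and Cdk6, read −3.20 and −3.07 at E8.5, then −1.14 and −1.34 at E10.5 (chromosome 4, 109333779 to 109333838). It rose 4.18-fold and 3.33-fold (limma difference 1.90, SE 0.20, adjusted p = 0.000115), the largest stage difference among the members. With normexp its limma difference was 0.96, below the 1.30 of *E2f2*. *Cdkn1b*, which encodes p27, read 1.48 and 1.38 at E8.5, then 2.23 and 2.20 at E10.5 (chromosome 6, 134875424 to 134875483). It rose 1.68-fold and 1.76-fold (limma difference 0.78, SE 0.12, adjusted p = 0.00137). *Cdkn1a*, which encodes p21 and is a p53 target, read −0.76 and −0.68 at E8.5, then −0.40 and −0.59 at E10.5 (chromosome 17, 29237377 to 29237436). It was not called, with a difference of 0.23 (SE 0.15, limma adjusted p = 0.282), but without scaling it was (0.47, adjusted p = 0.0249), and both E10.5 arrays lay above both E8.5 arrays.

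**Figure D2:**
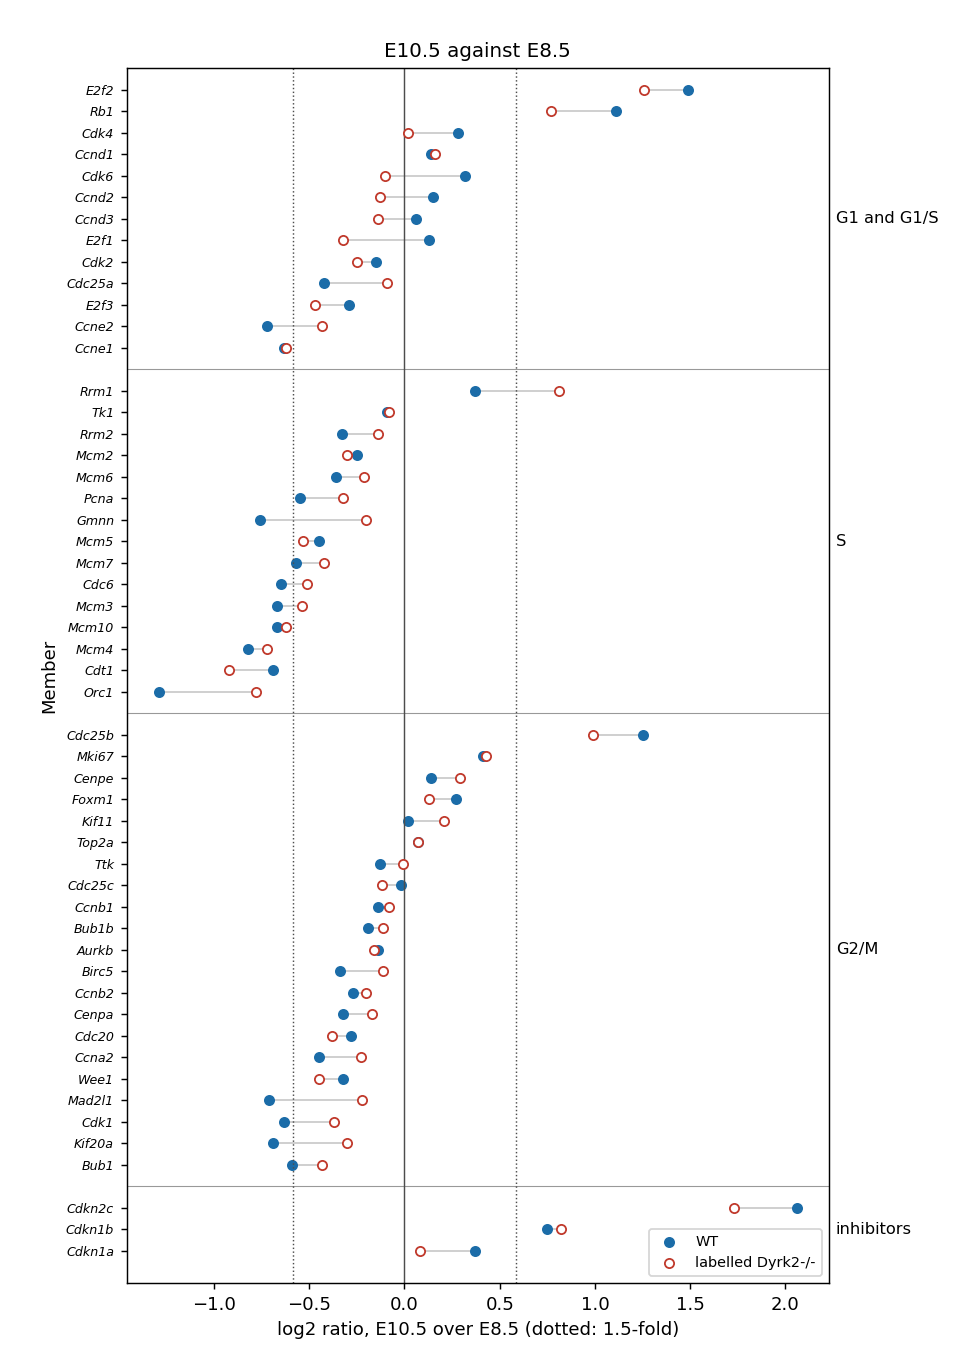
Log2 ratio of E10.5 over E8.5 for each of the 52 members on the WT arrays (filled) and on the arrays labelled *Dyrk2*-/- (open), by role, with 1.5-fold as dotted lines and 1 array per group. In S phase 14 of 15 members lie left of 0 in each genotype and all 3 inhibitors lie right of it, though with the spike-in scaling 12 of the 15 lie right of 0 on the labelled arrays.

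**Figure D3:**
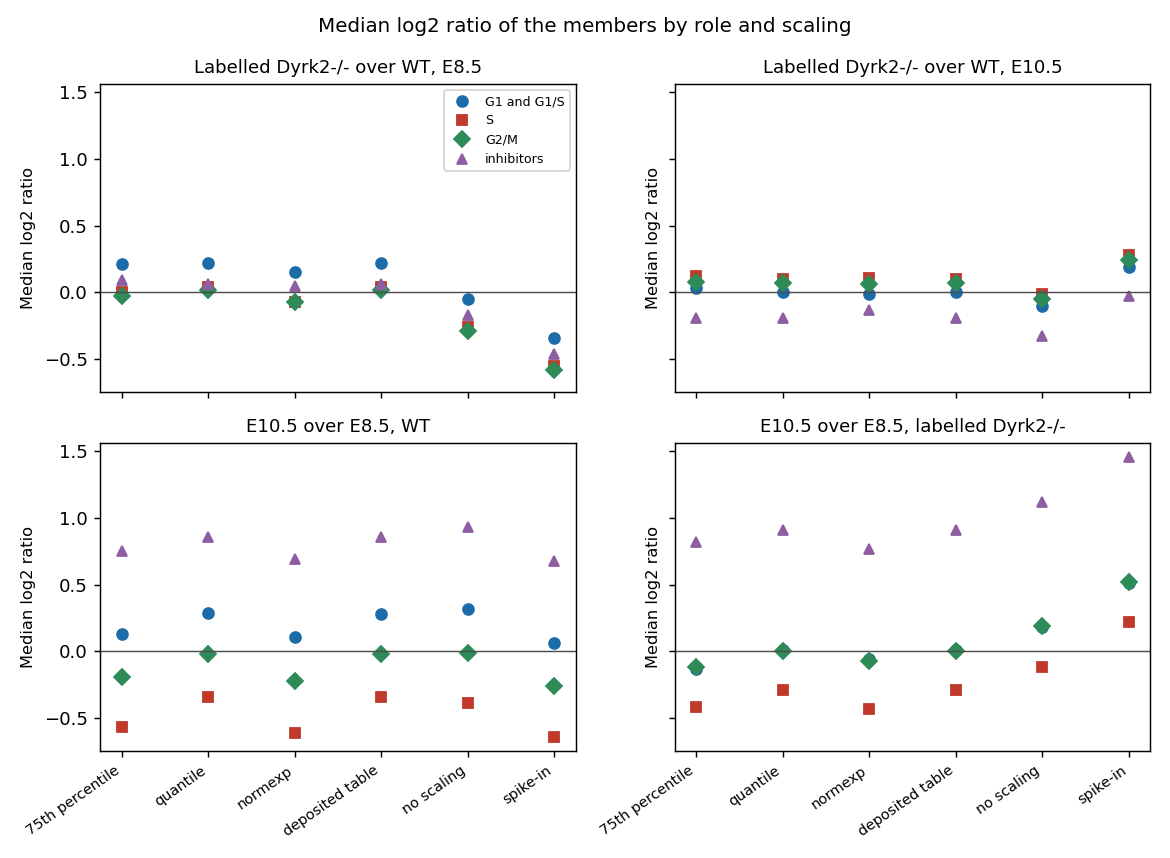
Median log2 ratio of the members of each role in the 4 comparisons (panels), under 6 ways of processing the same arrays (horizontal axis). The S phase median on the labelled arrays runs from −0.43 with normexp to 0.22 with the spike-in probes, and the inhibitors' stage medians lie above 0 throughout.

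Other genes of the same processes, from lists drawn up beside the members, were set against them. The limma counts below stand beside 17.2% of 20901 genes called higher and 20.4% called lower. The genotype counts stand beside 11.6% of all genes at E8.5 and 7.73% at E10.5. Of the 18686 genes well above background on all 4 arrays 6.92% and 3.09% passed 1.5-fold. All 39, all 43 and 26 of the 29 genes below were well above background on all 4. Of 39 further DNA replication genes limma called 0 higher and 19 lower at E10.5, and 0 were 1.5-fold different between genotypes at either stage. Of 43 further mitosis genes limma called 0 higher and 7 lower, and 1 was 1.5-fold different between genotypes at E8.5 and 0 at E10.5. That gene was *Mad1l1*, a checkpoint protein, which read 1.69 and 2.33 at E8.5, then 1.95 and 1.84 at E10.5. It was 1.55-fold higher on the labelled array at E8.5, while its other probe had a log2 ratio of −0.15. Of 29 further genes of G1 and cell cycle control limma called 6 higher and 9 lower, and between genotypes 0 of 27 compared at E8.5 and 1 of 28 at E10.5 passed 1.5-fold. That gene was *Cdkn2b*, the inhibitor p15. Its brightest probe read −4.44 and −5.52 at E8.5, where that probe was not well above background, and −3.09 and −3.72 at E10.5. At this probe *Cdkn2b* was 1.55-fold lower on the labelled array at E10.5. Its other probe, well above background on 3 arrays, was 1.34-fold lower there. Of the 4 further inhibitors of cyclin-dependent kinases in that list limma called 3 higher at E10.5, *Cdkn1c*, *Cdkn2b* and *Cdkn2d*. The calls of *Cdkn1c* and *Cdkn2d* were lost with the spike-in probes, that of *Cdkn2d* also without the trend (0.0505 in limma) and that of *Cdkn2b* with normexp (0.15). *Cdkn2a*, which encodes p16 and p19Arf and is named after its values were seen, was called lower. It read −2.79 and −3.21 at E8.5, then −6.52 and −6.91 at E10.5, where it was not well above background. It fell at least 3.81-fold and 2.95-fold (limma adjusted p = 0.000274), while a fainter probe never passed the background mark.

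Markers of cell types moved with the groups, given here as summed linear levels in units of the array's 75th percentile, and their part in the results on the members was not tested. Of 11 erythrocyte genes on the array 9 were well above background on the WT E8.5 array and 11 on the others. Their sum was 17.1 and 387 at E8.5, then 1380 and 1620 at E10.5, and the brightest by the mean over the 4 arrays, *Hbb-bh1*, an embryonic globin, read 3.37 and 7.15 and then 8.19 and 8.40. At E10.5 *Hbb-y* lay above it, at 8.44 and 8.47. All 11 were at least 1.5-fold higher on the labelled array at E8.5, with a median log2 ratio of 4.84, and 7 were at E10.5. The sum of 10 yolk sac endoderm genes (10, 10, 9 and 8 well above background) was 61.3 and 40.3 and then 26 and 21.2, the brightest by that mean being *Afp* at 3.46 and 2.89 and then 4.03 and 3.76. *Rbp4* lay above it at E8.5, at 4.50 and 3.90, then at 1.78 and 1.49, and 8 of the 10 lay below 0 between stages in each genotype. The sum of 10 genes of postmitotic neurons (7, 7, 10 and 10 well above background) was 22.1 and 17.1 and then 77.3 and 52.9, the brightest being *Stmn2* at 3.80 and 3.32 and then 4.80 and 4.18. Erythrocyte and neuron sums were higher at E10.5, the yolk sac sum lower.

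The sum of 6 heart genes, all well above background, was 247 and 244 and then 128 and 133, with *Myh6* brightest at 6.18 and 6.13 and then 5.08 and 5.21. Between stages 5 of the 6 were lower in each genotype, while *Nppa* was 14.1-fold and 7.95-fold higher. The sum of 8 genes of the embryo proper, all well above background, was 53.8 and 46.6 and then 20.3 and 19.1, with *Sox2* brightest by the mean at 3.08 and 2.93 and then 3.12 and 3.03. *Cdx2* lay above it at E8.5, at 4.18 and 3.69, then at −1.65 and −2.36, and 7 of the 8 lay below 0 between stages in each genotype. Between genotypes 1 of the 8 was at least 1.5-fold lower on the labelled array at E8.5, *Foxa2* by 2.08-fold, and 3 were at E10.5, *Tbx6* by 3.16-fold, *T* by 2.81-fold and *Cdx2* by 1.63-fold. Of 9 decidua and trophoblast genes on the array 4, 5, 3 and 4 were well above background, with sums of 15.3 and 10.6 and then 16.2 and 19.2 and *Gcm1* brightest at 3.83 and 3.16 and then 3.97 and 4.22. At E8.5 *Gcm1* was 1.59-fold lower on the labelled array, while *Prl3d1* was at least 6.62-fold and *Prl8a2* 2.72-fold higher. Between stages, against the sums, *Ascl2* was 5.13-fold and 4.05-fold lower and *Prl8a2* at least 3.17-fold and 8.95-fold lower. Of 4 genes compared on the WT arrays 1 was at least 1.5-fold higher and 2 lower, and of 6 on the labelled arrays 3 and 3. *Tpbpa*, *Cts7* and *Ctsq* were never well above background. Of 5 sex chromosome genes 4, 4, 4 and 1 were well above background, with sums of 4.67 and 4.24 and then 3.52 and 0.816. The brightest, the Y-linked *Eif2s3y*, read 1.45 and 1.14 and then 0.66 and −6.09, at least 43.2-fold lower on the labelled E10.5 array, and *Xist* was at least 20.4-fold higher there. The sex of the embryos and the genotype cannot be told apart at E10.5. Nor can sex and stage on the labelled arrays, where all 5 sex chromosome genes were at least 1.5-fold different between stages.

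The members' promoters were searched for the letters that cell cycle factors are known to bind, as a description. RefSeq promoter windows of 300 bases (GRCm38.p6), from 250 before to 50 after the start, were held for 40 of the 52 members, 46 windows in all. The CHR element (TTTGAA or TTCGAA), the CCAAT box (CCAAT) and an E2F element (TTTCCCGC, TTTGGCGC, TTTGCCGC or TTTCGCGC) were searched on both strands, and overlapping matches counted separately. Of all 32851 windows 19.2% held a CHR, 37.4% a CCAAT box and 2.26% an E2F element. The 15 G2/M windows held them in 73.3%, 86.7% and 6.67%, and the 14 S phase windows in 14.3%, 78.6% and 50%. The 12 G1 windows held them in 16.7%, 50% and 33.3%, and the 5 inhibitor windows in 0%, 40.0% and 0%. A match is not a bound site, and its part in the stage differences was not tested. Shown are the 250 bases before the start, 5′ to 3′, of *Orc1* and *Cdk1*, named above, and of *Mcm6* and *Top2a*, picked for the most E2F and CHR matches, with matched letters in capitals.
Orc1 (chr4:108579204-108579453, plus strand): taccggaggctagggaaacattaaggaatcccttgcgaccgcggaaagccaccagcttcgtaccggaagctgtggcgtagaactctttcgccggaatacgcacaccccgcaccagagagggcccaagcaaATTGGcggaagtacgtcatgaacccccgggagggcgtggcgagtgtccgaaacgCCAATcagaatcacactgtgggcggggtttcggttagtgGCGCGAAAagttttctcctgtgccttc
Cdk1 (chr10:69352913-69353162, minus strand): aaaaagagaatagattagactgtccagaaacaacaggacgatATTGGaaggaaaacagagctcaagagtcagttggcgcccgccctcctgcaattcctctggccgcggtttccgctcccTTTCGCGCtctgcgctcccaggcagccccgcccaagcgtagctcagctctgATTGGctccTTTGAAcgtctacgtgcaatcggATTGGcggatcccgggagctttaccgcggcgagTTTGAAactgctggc
Mcm6 (chr1:128359706-128359955, minus strand): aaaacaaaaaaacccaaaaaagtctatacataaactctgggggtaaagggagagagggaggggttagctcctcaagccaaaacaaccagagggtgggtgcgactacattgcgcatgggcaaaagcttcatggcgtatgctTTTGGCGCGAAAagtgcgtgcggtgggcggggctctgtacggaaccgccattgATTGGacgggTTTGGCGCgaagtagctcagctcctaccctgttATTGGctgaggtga
Top2a (chr11:99024190-99024439, minus strand): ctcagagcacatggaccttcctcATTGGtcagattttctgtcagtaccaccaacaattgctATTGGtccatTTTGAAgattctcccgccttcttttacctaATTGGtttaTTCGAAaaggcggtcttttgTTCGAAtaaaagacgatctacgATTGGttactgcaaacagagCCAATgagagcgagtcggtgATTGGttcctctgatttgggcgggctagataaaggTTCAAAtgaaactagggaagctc

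In these stretches *Orc1* held 1 E2F element and 2 CCAAT boxes, *Cdk1* 1 E2F element, 2 CHR and 3 CCAAT boxes, *Mcm6* 3 E2F elements and 2 CCAAT boxes, and *Top2a* 4 CHR and 6 CCAAT boxes. *Orc1* and *Cdk1* were called lower at E10.5 by limma, whereas *Mcm6* and *Top2a* were not called.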

How the data were processed

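Per the file headers, each deposited scanner file holds the intensity of 62976 spots on a linear scale, background-subtracted and corrected for position by the authors' Agilent Feature Extraction (10.7.1.1 in the headers, 9.5.1.1 in the submitters' processing notes), not scaled between arrays; no spot was saturated. Log2 was averaged over non-outlier spots of each of 56605 probes and each array's 75th percentile over probes subtracted. The percentile was first taken over spots, and the members' values were seen under that setting before it was changed to probes; the spot percentile is kept as an alternative added after seeing the data. The floor for bounds was each array's dimmest probe still well above background, −4.82, −4.53, −4.72 and −4.77 (WT and labelled E8.5, then E10.5). Genes were their brightest probe, compared where 1 or both arrays were well above background, and called at 1.5-fold. limma 3.58.1 (R 4.3.3; lmFit, eBayes with trend) fitted genotype and stage over probes that passed this mark on 2 or more arrays (Benjamini-Hochberg). Between arrays of 1 group no spread could be measured, which limits the precision.

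The members named in full were those 1.5-fold different between genotypes or past limma's threshold for genotype, and per role the 3 with the largest difference between stages; of the further lists (DNA replication, mitosis, G1 and cell cycle control, p53 and its targets), the 3 with the largest log2 ratio at each stage among those called; *Dyrk2*; and of each marker list its brightest gene. Members and lists were chosen with earlier results of these data known. Marker genes *Epb42* and *Prl2c2* were not found by name. Alternatives were quantile normalization, spike-in control probes (7 of 10 used), no scaling, normexp with offset 50, the deposited value table of linear intensities (whose 4 columns each have a median of 27.6), other filters on dim probes, averaged probes of a gene, a 2-fold threshold and limma without the trend. Python 3.11.15, numpy 2.4.6, pandas 2.3.3, and matplotlib 3.10.9 were used.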

Additional observations from a re-analysis of the deposited data

How the results depend on the processing

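Of the members, 0 were 1.5-fold different between genotypes at E10.5 and 0 passed limma for genotype under every alternative run. At E8.5 the count of 0 became 19 lower with the spike-in probes, 3 lower without scaling and 1 higher with the mean over all probes. The spike-in probes moved the median of all probes by −0.55 there, and omitting the scaling moved it by −0.26. Shares of all genes are given for the percentile scaling only. Between stages on the WT arrays 18 members became 10 after quantile normalization, 10 in the deposited table, 8 without scaling and 5 at 2-fold, and otherwise stayed between 17 and 20. On the labelled arrays 11 became 2 at 2-fold and otherwise lay between 9 and 15. The 24 members past limma for stage became 1 with the spike-in probes, 13 without scaling and 9 without the intensity trend, and otherwise lay between 21 and 25. The log2 ratio of *Ccne1* between stages on the labelled arrays turned from −0.62 to 0.02 with the spike-in probes, that of *Mcm10* likewise, and 14 of the 17 called lower lay above 0 there. The cause was not tested. The percentile over spots, chosen after seeing the data, gave 0 and 0 between genotypes, 17 and 9 between stages and 22 in limma for stage. Leaving out an array was not possible, since each group has 1. Limits are 1 array per group, 1 residual degree of freedom, directions that rest on labels, and a scale between arrays that moves the sign of ratios.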

Other observations

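The list of p53 and its targets held 24 genes, of which limma tested 23 and called 5 higher and 7 lower at E10.5 and 0 for genotype, with 5 at an unadjusted p under 0.05. Over all 20901 genes these shares were 17.2%, 20.4%, 0.0287% and 5.67%. Between genotypes 1 of 24 was 1.5-fold different at E8.5 and 3 of 23 compared at E10.5, against 11.6% and 7.73% of all genes. Of the 18686 genes well above background on all 4 arrays, as 23 of the 24 were, 6.92% and 3.09% passed 1.5-fold. *Gtse1*, a microtubule protein of G2 that restrains p53, read 1.12 and 0.37 at E8.5, then 1.05 and 0.29 at E10.5 (WT first). It was lower on both arrays labelled *Dyrk2*-/-, by 1.69-fold and 1.70-fold, with a limma genotype difference of −0.76 and an adjusted p of 0.162. *Eda2r*, a death receptor, read −3.19 and −2.97 at E8.5, then −4.12 and −2.91 at E10.5. It was 2.31-fold higher on the labelled array at E10.5, where the WT value lay near that array's floor of −4.72. The other *Eda2r* probes were not well above background. *Mdm4*, a p53 inhibitor, read 0.97 and 0.92 at E8.5, then 0.67 and 0.05 at E10.5, where it was 1.54-fold lower. None of its other probes reached 1.5-fold at E10.5, while at E8.5 1 of them was 1.76-fold higher and another at least 1.65-fold lower. *Trp53* itself read 1.65 and 1.55 at E8.5, then 1.62 and 1.55 at E10.5.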
